A study of Ginkgo biloba with 2 samples.

Results

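miR396 is a plant microRNA family that holds back growth-regulating factors, and in leaves of Ginkgo biloba it was described here from 24 of the 467 names in a count table. A name belongs to the family where it carries exactly this family number after "miR", whatever its species prefix, letter or arm, and no read value entered that choice. Small RNA was read from normal green leaves in 1 library and from mutant yellow leaves in another. The labels' protocols have both kinds of leaves picked from a healthy adult tree from May to July in successive years, describe those of the mutant as yellow-green and striped, and mention RNA from cambium while the tissue label is leaf. The sources used here give neither the mutation nor the number of leaves in a library. No gene or marker in the files checks the leaf label, since the table holds miRNA names alone.

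In flowering plants, miR396 is cut from a hairpin precursor, and the strand from its 5p arm usually guides the cleavage of mRNAs for growth-regulating factors (GRFs). GRFs are transcription factors that work with GRF-interacting factors to keep leaf cells dividing, so more miR396 is known to go with fewer dividing cells and smaller leaves in Arabidopsis thaliana. There, the TCP factors controlled by miR319 raise miR396, and the bHLH factor bHLH74 is a further target. The 3p strand is the partner strand of the hairpin, with fewer known targets.

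Over all names of the table, 2084893 reads were counted in green and 2793966 in yellow leaves. Levels are given as CPM, the reads of a name scaled to 1000000 reads of its library in the table, and a ratio is yellow CPM over green CPM. Replicates are lacking, with 1 library for each kind of leaf, and no p-value is given. Each interval is a 95% exact binomial interval that covers counting error alone, and reads counted with no molecular identifiers need not be separate molecules. A difference in miR396 per cell and a difference in the number of cells that make it cannot be told apart in whole leaves.

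The names come from 15 species, since the authors counted reads under the names of other plants. Most prefixes belong to flowering plants, such as ath for Arabidopsis thaliana, vvi for grapevine, ppe for peach and ptc for black cottonwood. Only pde-miR396, from the pine Pinus densata, carries a conifer prefix, and smo-miR396 comes from the spikemoss Selaginella moellendorffii. By their names, 3 are 5p strands, 9 are 3p strands and 12 give no arm. All 24 names had reads in both libraries, and 20 had at least 20 reads in the libraries together.

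The family's reads were concentrated under names of the b type. ath-miR396b-5p, the most-read name, had 62840 green and 103508 yellow reads, or 30141 and 37047 CPM. vvi-miR396b followed with 61971 and 101786 reads. These counts differed by 1.38% in green and 1.66% in yellow leaves, and how many reads the names share is not known. Next came vvi-miR396a, with 22788 green and 49996 yellow reads. Of the 3p names, the most-read, ath-miR396b-3p, had 14311 and 28001 reads. Below these lay a long tail: pde-miR396, the conifer name, had 25 green and 23 yellow reads. smo-miR396 had 235 and 451 reads. The names of the gymnosperm and the spikemoss were thus among the less-read, and the most-read names were those of flowering plants.

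**Figure D1:**
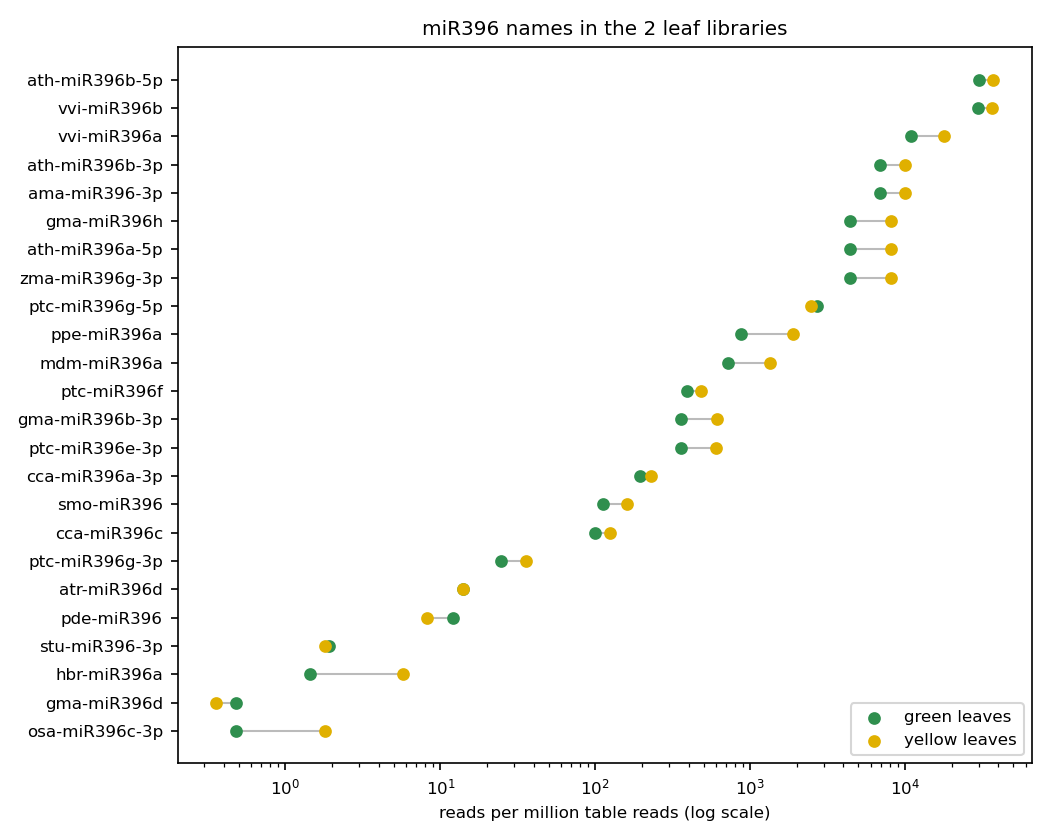
CPM of the 24 miR396 names (horizontal log axis) in green and yellow leaves, 1 point per library, ordered by green reads. The names span from 0.480 CPM (gma-miR396d and osa-miR396c-3p) to 30141 CPM (ath-miR396b-5p) in green leaves.

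Several names held nearly the same counts and may not be separate measurements. With a tolerance of 1% of the larger count in both libraries, 3 sets of names were found. ath-miR396b-3p and ama-miR396-3p differed by 15 reads in green and 7 in yellow leaves. gma-miR396b-3p had 751 green and 1698 yellow reads, and ptc-miR396e-3p had 747 and 1692. These sets joined names of the 3p strand. The other set mixed the arms: ath-miR396a-5p and zma-miR396g-3p had equal counts, 9166 in green and 22731 in yellow leaves. gma-miR396h, with no arm in its name, had 9167 and 22746. Whether zma-miR396g-3p and the 5p name hold the same reads is not known from the table. No name outside the family came within 1% of a miR396 name that had at least 20 reads.

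The sum over the family depended on how such names were counted. Summed over all 24 names, miR396 made up 10.4% of the green library and 14.4% of the yellow library. With the near-identical names taken once, these shares were 8.76% and 11.7%. Taking only the most-read name of each arm, ath-miR396b-5p and ath-miR396b-3p, gave 3.70% and 4.71%. The yellow share was the higher in each way of counting, and the summed ratio went from 1.39 (1.38 to 1.40) over all names to 1.34 (1.33 to 1.34) with near-identical names once and 1.27 (1.26 to 1.28) for the most-read name of each arm.

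Most miR396 names had a higher share of the yellow than of the green library, though nearly all by less than 2-fold. Of the 20 names with at least 20 reads, 18 had a ratio above 1, beside 106 of the 306 such names in the table. For 17 of the 18 the interval lay above 1, which was not counted over all names. Near-identical names are counted separately here, so these are not 20 separate measurements. The median log2 ratio of the 20 names was 0.55, against -0.43 over the 306 names of the table with at least 20 reads. A common scaling factor cannot change the order of names, and 19 of the 20 stood above the table's median ratio. A name was called higher or lower where it had at least 20 reads, a ratio of 2 or more in either direction and an interval that left out 1. By this rule 1 of the 20 miR396 names was higher, beside 12.1% of all names, and none was lower, beside 24.8% of all names.

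This count rests on the scaling, because each other scaling that was tried raised every ratio by a common factor. With median-of-ratios scaling 8 of the 20 were called higher (40.0%, beside 19.6% of all names). With trimmed-mean (TMM) scaling 11 were (55.0%, beside 20.9%), and without the table's most abundant name 7 were (35.0%, beside 16.3%). Names with near-identical counts add to these numbers. With each such set taken once, 5 of 16 names were higher with median of ratios (31.25%). With TMM 7 of 16 were (43.75%), and without the most abundant name 4 of 16 (25%). The shares beside them remain 19.6%, 20.9% and 16.3% of all names, in which near-identical names were not merged. No miR396 name was called lower under any of these scalings. Of all names, 17.6% were called lower with median of ratios, 16.3% with TMM and 20.9% without the most abundant name.

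**Figure D2:**
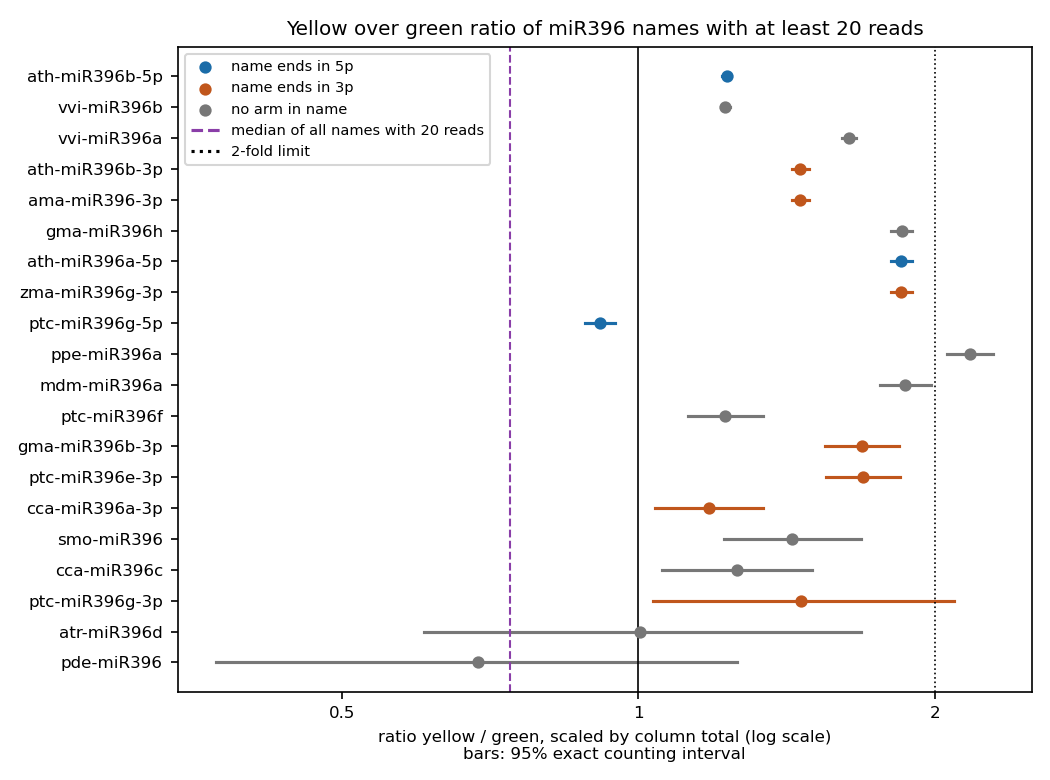
Ratio of yellow over green CPM (horizontal log axis) for the 20 miR396 names with at least 20 reads, with 95% exact counting intervals and colours for the arm in the name. ppe-miR396a, at 2.17, lies past the 2-fold limit, and pde-miR396, at 0.687, is the only point left of the median of all names.

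The names differed among themselves beyond counting error, in a way that scaling does not touch. Among names not marked as 3p, the 4 of the a type with at least 20 reads stood higher than the b type. ppe-miR396a had 1825 green and 5317 yellow reads, a ratio of 2.17 (2.06 to 2.29). mdm-miR396a, from apple, had 1500 and 3755 reads, a ratio of 1.87 (1.76 to 1.98). ath-miR396a-5p had a ratio of 1.85 (1.81 to 1.90) and vvi-miR396a one of 1.64 (1.61 to 1.66). The b-type names ath-miR396b-5p and vvi-miR396b had ratios of 1.23 (1.22 to 1.24) and 1.23 (1.21 to 1.24). Names of other letters were spread over this range or below it. gma-miR396h, near-identical in counts to ath-miR396a-5p, had a ratio of 1.85 (1.81 to 1.90), and ptc-miR396f one of 1.23 (1.12 to 1.34).

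Set against ath-miR396b-5p, the ratio of ppe-miR396a was 1.77 times as high (1.68 to 1.87), with a normal-approximation counting interval on the log scale. For ath-miR396a-5p it was 1.51 times as high (1.47 to 1.55) and for vvi-miR396a 1.33 times (1.31 to 1.36). In green leaves ath-miR396b-5p had 6.86 times the reads of ath-miR396a-5p, and in yellow leaves 4.55 times. The pair of ath-miR396b-5p and vvi-miR396b accordingly made up 57.8% of the family's summed reads in green and 51.1% in yellow leaves. Among the 3p names the order of the letters was the reverse, with cca-miR396a-3p below ath-miR396b-3p and gma-miR396b-3p, whose values are given with the 3p strand. The letters are those of other species, so an a or b name need not mark a separate ginkgo gene.

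ptc-miR396g-5p went the other way when scaled by the total. It had 5609 green and 6865 yellow reads, a ratio of 0.913 (0.882 to 0.946). With TMM its ratio was 1.26, with median of ratios 1.22 and without the most abundant name 1.10, so its direction depended on the scaling. Relative to ath-miR396b-5p it was lower under any scaling, at 0.743 times that name's ratio (0.716 to 0.771). The ratio of ppe-miR396a was 2.38 times that of ptc-miR396g-5p (2.23 to 2.54).

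The 3p strand was less read than the 5p strand in both libraries. ath-miR396b-5p had 4.39 times the reads of ath-miR396b-3p in green leaves and 3.70 times in yellow leaves. The ratio of ath-miR396b-3p, 1.46 (1.43 to 1.49), was 1.19 times that of ath-miR396b-5p (1.16 to 1.21). Summed over names with a stated arm, 5p made up 66.1% (65.9 to 66.4) of these reads in green leaves and 61.6% (61.4 to 61.8) in yellow leaves. With zma-miR396g-3p left out, whose counts equal those of a 5p name, these shares were 71.7% and 68.9%. The 5p share was lower in yellow leaves in each way of assigning arms that was tried.

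Among the 3p names, gma-miR396b-3p had a ratio of 1.69 (1.55 to 1.84), ptc-miR396g-3p one of 1.46 (1.03 to 2.09) and cca-miR396a-3p, from Cynara cardunculus, one of 1.18 (1.04 to 1.34). cca-miR396a-3p stood at 0.808 times the ratio of ath-miR396b-3p (0.712 to 0.917). cca-miR396c, with no arm in its name, had 207 green and 349 yellow reads, a ratio of 1.26 (1.056 to 1.501). Each of these names thus stood above 1 when scaled by the total.

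Of the other names, smo-miR396 had a ratio of 1.43 (1.22 to 1.68). ptc-miR396f had 820 and 1347 reads, a ratio of 1.23 (1.12 to 1.34). atr-miR396d, from Amborella trichopoda, had 29 and 39 reads and a ratio of 1.004 (0.605 to 1.68), and pde-miR396 had a ratio of 0.687 (0.372 to 1.26). The intervals of both names held 1 and are wide. 4 names had fewer than the 20 reads that a call required. hbr-miR396a, from the rubber tree, had 3 green and 16 yellow reads, a ratio of 3.98 (1.14 to 21.3), so that the read minimum alone kept it from a call. osa-miR396c-3p had 1 and 5 reads, stu-miR396-3p had 4 and 5, and gma-miR396d had 1 in each library.

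Other leaf regulators are given for comparison, each by its most-read name. The most-read name of miR166, gma-miR166u, had a ratio of 0.673 (0.667 to 0.679). That of miR159, pta-miR159a, had a ratio of 1.81 (1.77 to 1.85), within the range of the miR396 names. For miR319, which acts on TCP factors, mtr-miR319a-3p had 8610 green and 5287 yellow reads, a ratio of 0.458 (0.443 to 0.474). This single miR319 name lay below every miR396 name with at least 20 reads, though the wide interval of pde-miR396 holds its ratio. Among the 95 names outside the family with at least 1000 reads, the 5 with log2 ratios nearest to that of ath-miR396b-5p were novel_47, novel_275, novel_197, mdm-miR159a and sof-miR159c. Their ratios ran from 1.24 to 1.31. This likeness is over 2 libraries, and the numbered names among them have no family name from the authors.

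The authors' target table lists predicted, not measured, targets, each with the best protein match of the ginkgo gene. It gave 110 target genes to miR396 names, of 2713 genes in all, and 85 of the 110 had a protein match. None of the 110 matched a growth-regulating factor. The table holds 2 genes with such a match, and neither is listed for a miR396 name. Gb_20443 (match Growth-regulating factor 6) is listed for 3 names of miR172 and for ath-miR5658. Gb_26136 (match Growth-regulating factor 4) is listed for ath-miR5658 alone. In the table as used here, the best-known targets of the family in flowering plants were thus not listed for it. The sources used here name neither the prediction tool nor its threshold.

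Over the whole table, 4.05% of the genes were listed for a miR396 name, so small groups of genes can hold none. Of 13 genes in the table with a bHLH match, 4 with a TCP match, 15 with a kinesin match and 2 with a rhodanese or sulfurtransferase match, none was listed for a miR396 name. No gene of the table matched a GRF-interacting factor.

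The arms had separate target genes, though different genes with the same protein match could be listed for both. Apart from Gb_34232, the 3 stated 5p names listed 23 genes and the 9 stated 3p names listed 27, and they shared none. Names with no arm could be placed by these genes: 9 shared more with the 5p names, 2 (cca-miR396c and gma-miR396d) with the 3p names, and pde-miR396 shared none with either. That gives 12 names on the 5p side and 11 on the 3p side. In each of the 132 pairs of names across the sides, Gb_34232 was the 1 gene shared. In part this follows from the placement, since names with no arm were put on a side by their targets. zma-miR396g-3p shared 9 of its 13 genes with ptc-miR396e-3p and only Gb_34232 with ath-miR396a-5p. Its targets are those of a 3p strand, while its counts equal those of the 5p name. pde-miR396 shared 4 of its 8 genes with smo-miR396.

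**Figure D3:**
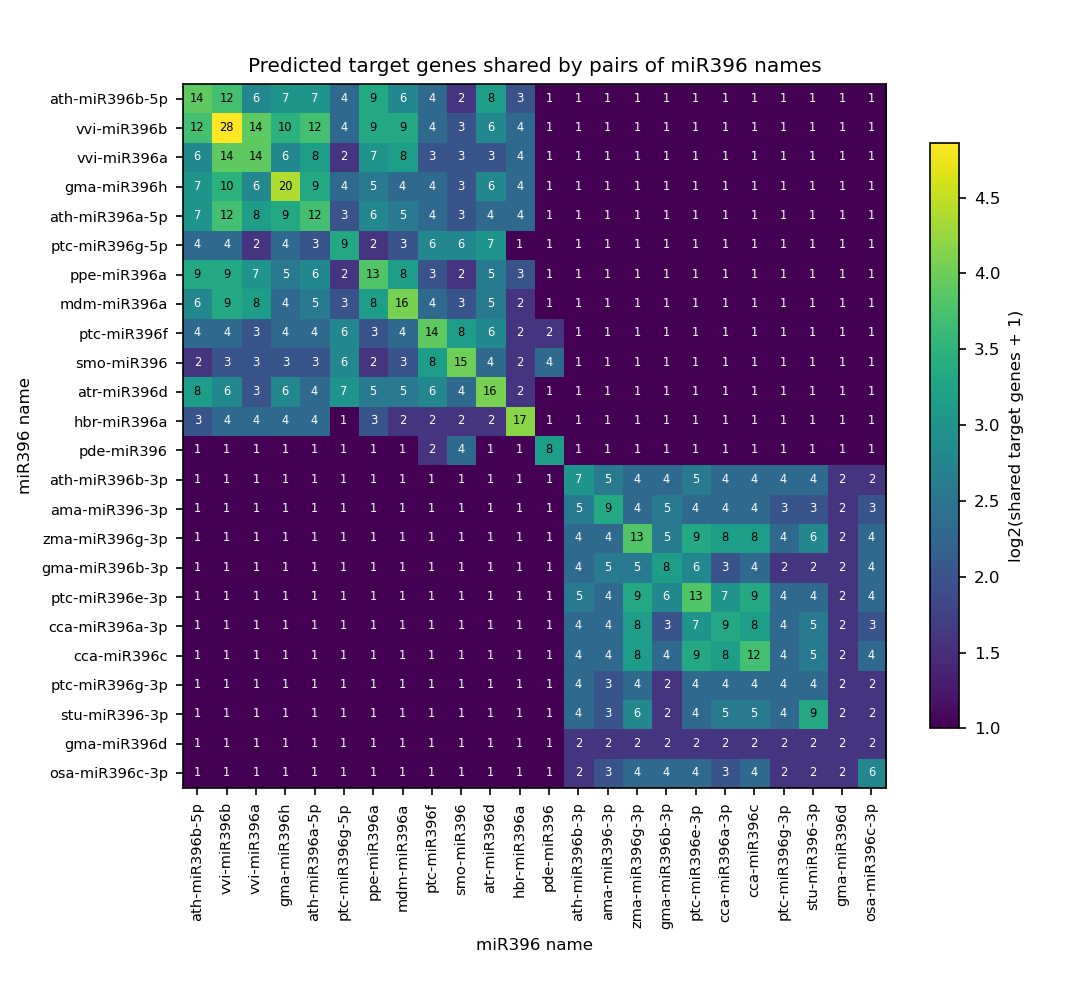
Number of predicted target genes shared by each pair of the 24 miR396 names; the diagonal gives each name's own targets, from 2 (gma-miR396d) to 28 (vvi-miR396b). Names with no arm are placed by their targets. A 5p block and a 3p block stand apart, with 1 shared gene everywhere between them.

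Gb_34232 was listed for all 24 miR396 names, of both arms, and for 5 numbered names. It has no protein match, so its product is not known from the files. The next most-listed genes belong to 1 side each. On the 5p side, Gb_33620 was listed for 11 names and matched the cyclophilin CYP40, a protein that in Arabidopsis helps load miRNAs into Argonaute. Gb_01408, listed for 10 names, matched a calmodulin-interacting protein of Arabidopsis. Gb_20952 (match CROWDED NUCLEI 4, a nuclear lamina-like protein) and Gb_40364 (match trichome birefringence-like 25, of a family that acetylates cell wall polymers) were each listed for 7. Gb_17912, also listed for 7, matched a bacterial modification methylase. Some protein matches occurred on both sides. Gb_33617, listed on the 3p side for zma-miR396g-3p alone, also matched CYP40. Peroxidase 42 was the match of Gb_11915, listed for 4 names of the 5p side, and of Gb_11917, listed for ptc-miR396e-3p alone.

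On the 3p side, Gb_25734, with no protein match, was listed for all 11 names. Gb_27655 and Gb_24705 were listed for 8 and 7 names, and both matched UNUSUAL FLORAL ORGANS, an F-box protein of flower development in Arabidopsis. Gb_17686, listed for 7, matched F-box only protein 6. Gb_05859, matching a Floricaula/leafy-like protein, the factor that works with UNUSUAL FLORAL ORGANS in flowering plants, was listed for cca-miR396a-3p and cca-miR396c.

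By protein match, 6 of the 110 genes fell in the F-box and ubiquitin group (5.45%, beside 1.81% of all genes in the table), and 4 of these were on the 3p side. 6 were pentatricopeptide proteins (5.45% beside 4.24%), 5 of them on the 5p side. Of all 110 genes, 77 were on the 5p side alone and 28 on the 3p side alone. 2 were receptor kinases or LRR proteins (1.82% beside 5.31%). Names of 1 side list many of the same genes, so the genes are not independent draws and no test was made. The keywords of the F-box and ubiquitin group include UNUSUAL FLORAL ORGANS, the match of Gb_27655 and Gb_24705. They were chosen with earlier results of these data known, so the group's share is not a measure of excess.

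The transcription factor group held 6 of the 110 genes (5.45%, beside 4.05% of all genes in the table). Its keywords include response regulator, leafy, NLP and EARLY FLOWERING 3. They were chosen with earlier results of these data known, so the share is not a measure of excess. Gb_00125 (match TINY, of the ethylene-responsive type) was listed for 4 names of the 5p side. Gb_15501 (match the cytokinin response regulator ARR2) was listed for ath-miR396b-5p and vvi-miR396b. Gb_15478 (match WRKY 11), Gb_27015 (match EARLY FLOWERING 3) and Gb_31293 (match NLP7) were listed only for hbr-miR396a, which had 19 reads in all. The sixth was the leafy-like gene Gb_05859.

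Chloroplast pentatricopeptide proteins, here Gb_22724 and Gb_26816, were counted in the pentatricopeptide group. Without such proteins, the chloroplast group held 5 of the 110 genes (4.55%, beside 3.58% of all genes in the table). Of these, Gb_23487, matching homogentisate phytyltransferase, an enzyme of vitamin E synthesis, was listed for ath-miR396b-3p and ama-miR396-3p. Gb_01039 (match a chloroplast small heat shock protein) and Gb_13783 (match a chloroplast and mitochondrial glycine tRNA ligase) were each listed for 3 names. The transporter group also held 5 (4.55%, beside 2.14%). Of these, Gb_04005 (match Ureide permease 2) was listed for 5 names of the 3p side, and Gb_36815 (match the purine permease AZG1) and Gb_06007 (match a plasma membrane calcium ATPase) for 4 and 3 names of the 5p side.

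**Figure D4:**
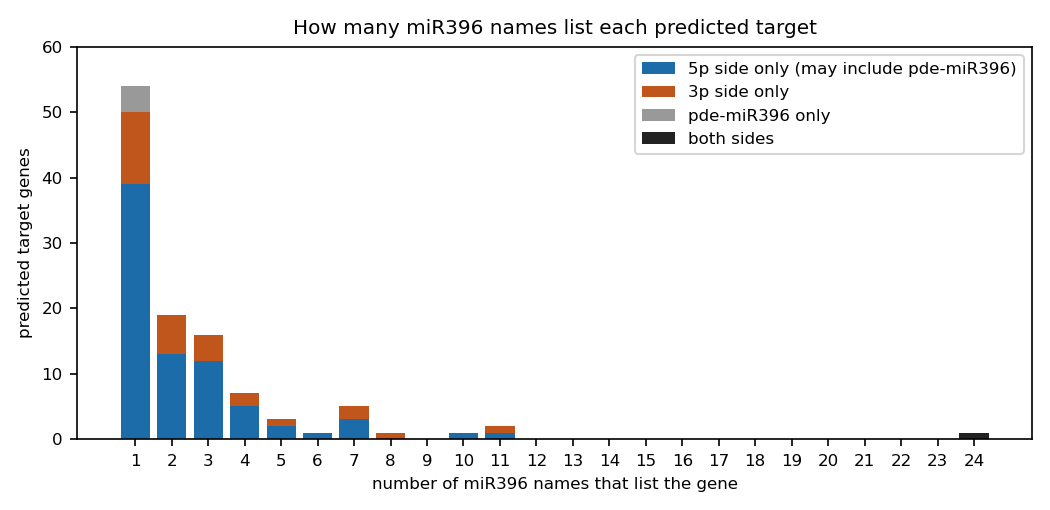
Number of predicted target genes (vertical axis) by how many of the 24 miR396 names list them (horizontal axis), coloured by the side of the names. 54 of the 110 genes are listed for 1 name only, and Gb_34232 stands alone at 24.

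Numbered names shared the miR396 targets. The 14 predicted targets of novel_28 were the 14 of vvi-miR396a, and the 13 of novel_21 were all among the 14 of ath-miR396b-5p. The 8 of novel_49 were all among the 9 of ptc-miR396g-5p, and 6 of the 12 of novel_95 were targets of cca-miR396a-3p. The numbered names had fewer reads, and those with at least 20 had ratios below 1. Over the whole table, 200 of the 306 names with at least 20 reads also had ratios below 1. novel_28 had 303 green and 178 yellow reads, a ratio of 0.438 (0.362 to 0.529), which was 0.268 times that of vvi-miR396a (0.222 to 0.322). novel_21 had 186 and 52 reads, a ratio of 0.209 (0.150 to 0.285), which was 0.170 times that of ath-miR396b-5p (0.125 to 0.231). For novel_95 the ratio was 0.603 (0.519 to 0.700). novel_49 had 1 read in each library. A miR396-like set of targets was thus listed for names with a higher and for names with a lower share of the yellow library.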

How the data were processed

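Small RNA reads of 1 green and 1 yellow leaf library were used. The authors deposited raw read counts per miRNA name, per the file headers, and a table of predicted targets. Bowtie is named in the submitters' processing notes; its version, mismatch setting, counting rule, genome build and target predictor stand in none of the sources used here. Whether a read was counted under several names is not known, so family sums may exceed distinct reads. Counts were scaled by the column total (2084893 and 2793966). Alternatives were edgeR 4.0.16 TMM, DESeq2 1.42.0 size factors and totals without the most abundant name or without miR396. Intervals used scipy 1.17.1. Calls were checked on simulated counts with counting error alone and a known scaling. That check covers neither the choice of scaling nor variation between libraries. Leaf types were compared with no p-value, for want of replicates. Every miR396 name is named; targets were named by the number of miR396 names that list them, all growth-regulating factor matches, and up to 3 per keyword group, plus some chosen after their values were seen. Members, lists and settings were chosen with earlier results of these data known. miRNA sequences were not used here.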

Additional observations from a re-analysis of the deposited data

How the results depend on the processing

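The number of miR396 names called higher was 1 scaled by the total, 11 with TMM, 8 with median of ratios, 7 without the most abundant name, 2 with no minimum of reads and 8 with a 1.5-fold limit. With near-identical counts once, a choice made after seeing the data, it was 4 without the most abundant name, 5 by median of ratios and 7 by TMM. Over all names, calls higher went from 37 to 64 with TMM, 60 with median of ratios and 19 with a minimum of 100 reads, and calls lower from 76 to 50 with TMM. With no minimum of reads, 46 of all names were called higher and 82 lower. With a 1.5-fold limit, 55 of the 306 names with at least 20 reads were called higher and 105 lower. The summed miR396 ratio was 1.92 with TMM, 1.86 with median of ratios, 1.67 without the most abundant name, 1.45 without the miR396 names, 1.37 with equal counts once, 1.34 with near-identical counts once and 1.27 with the most-read name of each arm. In the same 3 ways of counting, the share of the green library was 9.92%, 8.76% and 3.70%, and that of the yellow library 13.6%, 11.7% and 4.71%. In the order of those 4 scalings, the summed ratio was 1.77, 1.71, 1.54 and 1.34 for 5p names, and 2.15, 2.09, 1.87 and 1.63 for 3p names. Of the miR396 reads assigned to an arm, 5p made up 81.5% in green leaves for the most-read name of each arm, 81.6% with unstated arms put with 5p, 71.7% without zma-miR396g-3p and 81.5% with arms set by shared targets; in yellow leaves these were 78.7%, 79.4%, 68.9% and 79.3%. The last 2 ways of assigning arms were chosen after seeing the data. Sets with equal counts numbered 1, and 56 predicted targets were listed for at least 2 miR396 names. Of 96 single-name ratios under the 4 other scalings, 60 left their counting interval, as a common factor on every ratio makes them do. No paired analysis was possible because each leaf type has 1 library. The name added with no minimum of reads was hbr-miR396a, with a ratio of 3.98 (1.14 to 21.3) from 19 reads. For the other 3 names under 20 reads the interval held 1.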
